A study of Homo sapiens with 4 samples.

Results

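The dual-specificity phosphatase (DUSP) genes that restrain the stress-activated and growth-factor-activated mitogen-activated protein (MAP) kinases were followed as a set of 10 genes, out of 62663 annotated genes of which 20033 are protein-coding. The set, chosen by gene name, held *DUSP1*, *DUSP2*, *DUSP4*, *DUSP5*, *DUSP6*, *DUSP7*, *DUSP8*, *DUSP10*, *DUSP14* and *DUSP16*. Each gene was assigned every H3.3 peak interval that overlapped its gene body or lay within 10 kb of any of its GENCODE transcription start sites (TSSs). Together the 10 genes held 56 of the 88822 intervals without UV and 49 of the 77183 intervals after UV.

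The series holds 4 samples of MRC5 human lung fibroblasts, which are 2 H3.3 chromatin immunoprecipitation libraries and 2 input libraries, and the inputs were not analysed here. The cells were either left untreated (no UV) or irradiated with 10 J/m2 UV-C and allowed to recover for 3 h (UV), and they carried no other treatment or genetic change in the labels. The study's methods name the line MRC5_VA, which is immortalised with SV40, and state that the DNA of 3 replicates was combined before sequencing. Each condition is therefore 1 library, and the conditions were compared by description alone, without replicates and without a test.

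DUSP proteins remove phosphate from both the threonine and the tyrosine of the activation loop of MAP kinases, and so switch ERK, JNK and p38 off after growth factors or stress. Several of their genes are themselves rapid targets of MAP kinase signalling, which makes them part of a negative feedback loop, and *DUSP1* is a classical immediate early gene of the stress response. H3.3 is the histone H3 variant that is placed into chromatin outside DNA replication, and it is known to collect at active promoters and enhancers.

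A summit is the point of highest signal inside a peak, and upstream of several starts both libraries placed one at almost the same base. The next sequences show this for 5 of the genes, at the strongest upstream summit in an interval within 1 kb of a TSS that had a UV summit no more than 50 bp away. They are 101 bp windows of hg38 centred between the summits, all on the minus strand and printed 5′ to 3′ along the gene, with capitals from the no UV summit to the UV summit. *DUSP5* met the same rule, with summits 333 bp upstream without UV and 301 bp after UV, and its window is not shown. The *DUSP1* window is chr5:172772099-172772199, the *DUSP6* window is chr12:89353510-89353610, the *DUSP8* window is chr11:1572911-1573011, the *DUSP10* window is chr1:221742761-221742861 and the *DUSP16* window is chr12:12562910-12563010.
DUSP1: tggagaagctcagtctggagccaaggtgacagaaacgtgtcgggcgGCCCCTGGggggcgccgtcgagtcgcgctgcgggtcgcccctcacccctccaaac
DUSP6: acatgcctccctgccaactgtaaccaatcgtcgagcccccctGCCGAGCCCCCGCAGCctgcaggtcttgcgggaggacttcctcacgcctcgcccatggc
DUSP8: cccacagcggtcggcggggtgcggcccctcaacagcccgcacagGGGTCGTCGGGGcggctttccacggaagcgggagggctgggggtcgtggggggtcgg
DUSP10: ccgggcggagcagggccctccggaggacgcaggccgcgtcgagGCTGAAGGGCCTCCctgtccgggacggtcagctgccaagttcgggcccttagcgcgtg
DUSP16: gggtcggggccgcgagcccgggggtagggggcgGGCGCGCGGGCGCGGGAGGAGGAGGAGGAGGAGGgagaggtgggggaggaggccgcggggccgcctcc
The summits lay 7 bp apart at *DUSP1*, 11 bp apart at *DUSP8*, 13 bp apart at *DUSP10*, 15 bp apart at *DUSP6* and 33 bp apart at *DUSP16*. The rule itself kept these distances within 50 bp, and the upstream TSS summits of *DUSP4* and *DUSP14*, 218 and 77 bp apart, did not meet it. Over all protein-coding genes 49.9% of summits in shared intervals lay within 50 bp. Each window was rich in G and C, from 67.3% at *DUSP6* to 84.2% at *DUSP16*, and none overlapped an annotated untranslated region. Some of these summits were nearest to the start of another annotated gene. At *DUSP1* that of ENSG00000253736 lay 22 bp from the no UV summit and 29 bp from the UV summit. At *DUSP6* that of ENSG00000286608 lay 245 and 230 bp away, and at *DUSP8* that of *KRTAP5-AS1* lay 226 and 215 bp away.

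A further 3 sequences are the 250 bases before the start of *DUSP1* and *DUSP8*, which carry a cAMP response element shown in capitals, and of *DUSP2*, the member without an H3.3 interval, with its GC boxes in capitals. They come from RefSeq (GRCh38.p14, minus strand) at chr5:172771196-172771445, chr11:1572272-1572521 and chr2:96145441-96145690, and their starts coincide with the GENCODE starts.
DUSP1: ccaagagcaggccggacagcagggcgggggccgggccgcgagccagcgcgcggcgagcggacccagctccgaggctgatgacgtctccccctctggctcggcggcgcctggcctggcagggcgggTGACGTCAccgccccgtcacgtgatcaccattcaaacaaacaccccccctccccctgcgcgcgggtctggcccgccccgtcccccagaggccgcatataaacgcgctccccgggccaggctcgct
DUSP8: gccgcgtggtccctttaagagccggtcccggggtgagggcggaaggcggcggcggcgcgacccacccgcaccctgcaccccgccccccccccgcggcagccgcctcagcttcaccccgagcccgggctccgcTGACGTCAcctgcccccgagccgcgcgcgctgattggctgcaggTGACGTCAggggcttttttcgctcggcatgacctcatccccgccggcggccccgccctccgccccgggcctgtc
DUSP2: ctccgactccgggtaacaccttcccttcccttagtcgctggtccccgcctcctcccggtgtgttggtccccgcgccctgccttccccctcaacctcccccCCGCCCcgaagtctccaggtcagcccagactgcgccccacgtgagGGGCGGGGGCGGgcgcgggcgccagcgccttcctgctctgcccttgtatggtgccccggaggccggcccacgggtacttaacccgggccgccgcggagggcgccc

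The deposited lists held 102949 peaks without UV and 89740 after UV, and the 102924 and 89709 peaks on the autosomes, X and Y were used. The lists give no read numbers, so the depth of the libraries is unknown, and the part of depth in any peak present in 1 list alone was not tested. The median interval width was 435 bp without UV against 449 bp after UV. As a check of the labelled cell type, 6 of 10 fibroblast genes had an interval within 1 kb of a TSS in both libraries, including *COL1A1*, *FN1* and *VIM*, while *COL3A1*, *THY1*, *LUM* and *DCN* had none in either. Among genes of other cell types, *CDH1*, *SFTPC* and *SFTPB* had such an interval in both libraries and 6 had one in neither, so an interval at a TSS is not by itself a mark of a gene of this cell type.

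H3.3 was present at the TSS of 9 of the 10 DUSP genes both before and after UV. An interval within 1 kb of any TSS was counted as a TSS interval, and by this measure 44.8% of all protein-coding genes had one in both libraries. None of the DUSP genes gained a TSS interval after UV, against 9.20% of protein-coding genes, and none lost one, against 3.20%. *DUSP2* was the member with none in either library, as were 42.8% of protein-coding genes. The canonical TSS named in the following is the start of the transcript that GENCODE marks as the gene's representative one. The widths and positions of the intervals differed more between the libraries than their presence, and they are described gene by gene.

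**Figure D1:**
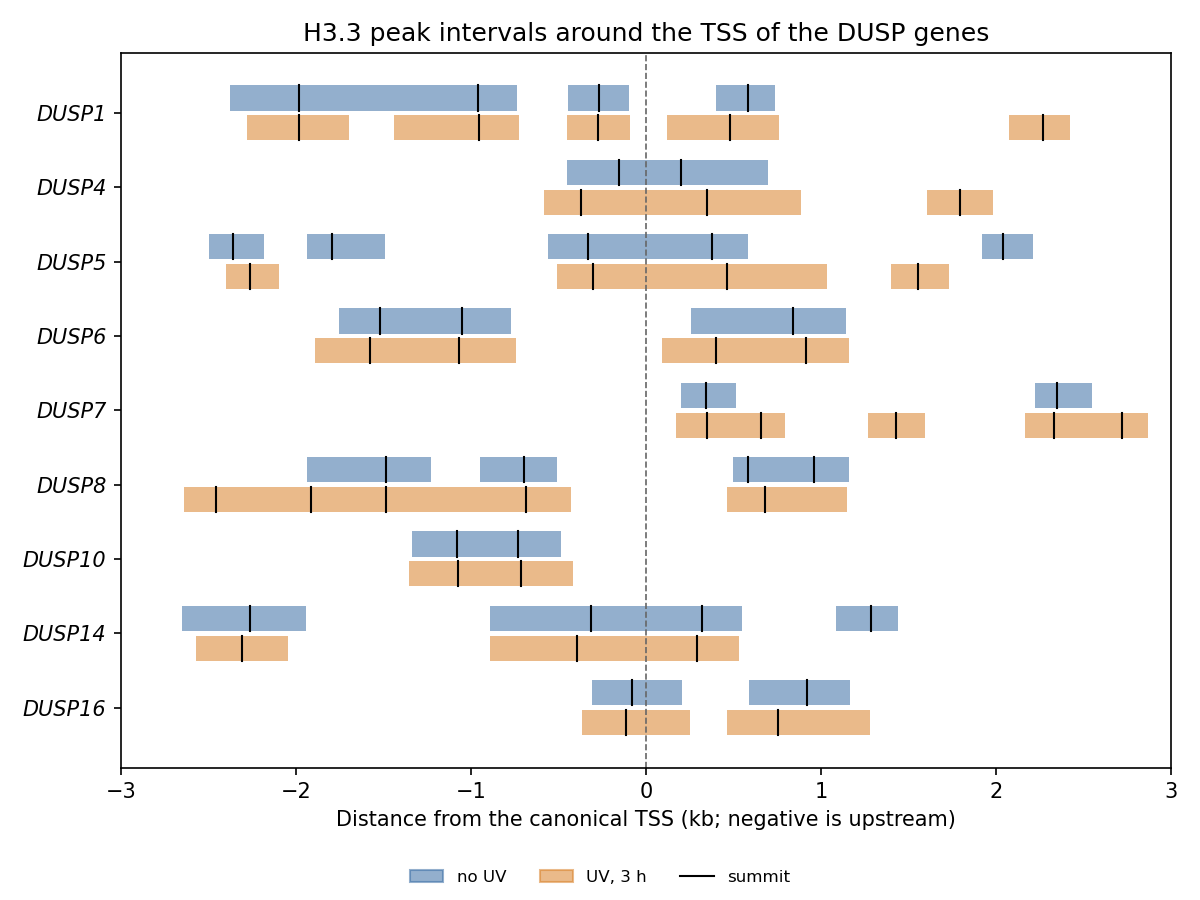
Intervals (bars) and summits (black lines) of the no UV and UV libraries within 3 kb of the canonical TSS of the 9 DUSP genes with H3.3 intervals, with distance in kb and upstream to the left. The TSS lies inside an interval in both libraries at *DUSP4*, *DUSP5*, *DUSP14* and *DUSP16* and outside in both at the others, and after UV the upstream interval of *DUSP8* is 2214 bp wide and the 1646 bp interval of *DUSP1* is divided.

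The nuclear, inducible phosphatases were taken first. *DUSP1* encodes MKP-1, which acts on p38, JNK and ERK. The gene spans 3100 bp at chr5:172768096-172771195 on the minus strand, and its neighbourhood held 10 intervals without UV and 11 after UV. The intervals covered 5730 bp without UV and 5300 bp after UV. Almost all of them recurred, since 8 of the 10 no UV intervals overlapped a UV interval and 9 of the 11 UV intervals overlapped a no UV interval.

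The largest *DUSP1* interval was divided after UV. Without UV it was 1646 bp wide with summits 958 and 1984 bp upstream of the TSS. After UV, separate intervals of 712 and 583 bp held summits 951 and 1985 bp upstream. The signal thus had its highest points at almost the same bases, and the stretch between them no longer passed the authors' threshold. The summed TSS interval width was 2336 bp without UV and 1719 bp after UV, a ratio of 0.736, a low value among genes (percentile 13.2 of the 8974 protein-coding genes with a TSS interval in both libraries). The ratio depends on the 1 kb limit, because the 583 bp piece lies beyond it, and with a 2 kb limit the widths were 2336 and 2302 bp.

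Around the *DUSP1* start itself the gap between intervals was shorter after UV. The stretch free of H3.3 intervals over the TSS measured 498 bp without UV but 207 bp after UV. The difference lay on the downstream side. The first downstream interval began 402 bp into the gene without UV and 119 bp into it after UV, and it was 339 and 644 bp wide with its summit in coding exon 1. The upstream edge was nearly in the same place, at 97 bp and 89 bp from the TSS.

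Farther out, the *DUSP1* interval with a summit 6083 bp upstream without UV and 6129 bp upstream after UV had a fold enrichment over the local background of 4.09 and 12.54. Its −log10 q, the measure of confidence in a peak, was 7.3 without UV and 28.0 after UV. Both values depend on library depth, so ranks within a library are given beside them, and this interval ranked at percentile 68.1 of the no UV summits and 92.7 of the UV summits. A UV interval of 348 bp in coding exon 4, with its summit 2268 bp downstream of the TSS, had no counterpart in the other list.

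*DUSP2* encodes PAC-1, a nuclear phosphatase best known from activated immune cells. The gene spans 2272 bp at chr2:96143169-96145440 and had no interval in its body or within 10 kb of either of its TSSs in either library. The same held for 25.4% of protein-coding genes. The nearest interval lay 22965 bp away without UV and 23143 bp away after UV, in both cases closest to the TSS of *STARD7*. The GC content of its RefSeq promoter was 74.0%, against a median of 58.0% over all promoters.

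*DUSP4* encodes MKP-2, a nuclear relative of MKP-1, and spans 17621 bp at chr8:29333064-29350684. Without UV it had a single interval of 1148 bp lying across the TSS. After UV this interval was 1470 bp wide, reaching 582 bp upstream and 887 bp downstream instead of 450 and 697 bp. The summits on either side of the start lay farther from it after UV, at 372 bp upstream and 349 bp downstream instead of 154 and 202 bp. Another UV interval of 379 bp lay in intron 1, 1794 bp downstream and 85 bp from another annotated start of the gene, with a −log10 q of 13.2. With both, the TSS width was 1849 bp and the ratio 1.61, past the limit of 1.5 used here to call a gene wider. At the canonical TSS alone the ratio did not pass that limit.

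*DUSP5* encodes a nuclear phosphatase selective for ERK and spans 13627 bp at chr10:110497907-110511533 on the plus strand. It had 8 intervals without UV and 4 after UV, and the covered length was 3360 and 2570 bp. The interval over the start was present in both libraries and was 1147 bp wide without UV and 1544 bp after UV. Its downstream edge lay 585 bp into the gene without UV and 1034 bp into it after UV, whereas the upstream edge lay 561 and 509 bp from the TSS. The 6 no UV intervals without a counterpart were 281 to 447 bp wide, and 5 of them had a −log10 q below 3. With weaker peaks left out of both lists (−log10 q under 3), *DUSP5* had 2 intervals without UV and 3 after UV, so its lower number after UV rests on weak peaks.

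The cytoplasmic phosphatases selective for ERK followed. *DUSP6* encodes MKP-3, a feedback inhibitor of ERK, and spans 5267 bp at chr12:89347235-89352501. It had 2 intervals in each library, 1 on each side of the start. The upstream interval was 983 bp wide without UV and 1153 bp after UV, the downstream interval 888 and 1067 bp. The downstream interval had 1 summit without UV, 838 bp into the gene in coding exon 1. After UV it had a summit at 913 bp and a further summit at 401 bp, in the 5′ untranslated part of exon 1, with a −log10 q of 23.5. The free stretch over the canonical TSS was 1029 bp without UV but 834 bp after UV. The difference again lay downstream, where the edge stood 258 and 95 bp from the start.

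*DUSP7* encodes a close relative of MKP-3 and spans 7653 bp at chr3:52048919-52056571. At its start it had the TSS peak of lowest −log10 q among the 9 genes, with a 316 bp interval without UV and a −log10 q of 3.6, a value that 8742 of 9616 protein-coding genes with a TSS interval reached or exceeded. After UV the same interval was 625 bp wide, and a further interval of 329 bp lay in intron 1. The summed width was 316 bp without UV and 954 bp after UV, a ratio of 3.02 and the largest among the DUSP genes (percentile 95.5). The summit kept its place, 346 bp downstream without UV and 350 bp after UV. When peaks with a −log10 q under 5 were left out of both lists, the no UV interval was lost and *DUSP7* counted as a gene that gained a TSS interval.

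The widest H3.3 at *DUSP7* lay past the 3′ end of the gene. Intervals of 795 and 1422 bp without UV, with summits between 8370 and 10563 bp downstream of the TSS, corresponded to 1 interval of 1842 bp after UV. The strongest summit there lay 9117 bp downstream without UV and 9075 bp after UV. Its nearest annotated start was that of another gene, ENSG00000285685, 691 bp away without UV and 733 bp away after UV.

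The phosphatases selective for JNK and p38 came next. *DUSP8* spans 18221 bp at chr11:1554051-1572271 and had 7 intervals in each library, yet the covered length was 4585 bp without UV and 7845 bp after UV, a ratio of 1.71. All 7 no UV intervals had a counterpart. Upstream of the start, intervals of 445 and 712 bp were joined into 1 interval of 2214 bp, which kept summits at 685 and 1486 bp (696 and 1483 bp without UV) and added summits 1916 and 2459 bp upstream. In the last part of the gene, intervals of 1302 and 751 bp with summits in introns 3 and 4 and coding exon 7 were joined into 1 interval of 2713 bp.

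The summed TSS width of *DUSP8* was 3122 bp without UV and 7143 bp after UV, a ratio of 2.29 (percentile 89.8). Much of this width belongs to annotated starts inside the gene, and at the canonical TSS alone the widths were 1105 and 2903 bp, still past the limit. Part of the ratio comes from the 1 kb limit. The no UV intervals of 712 and 751 bp lay beyond it, whereas the UV intervals that joined them were counted whole. With a 2 kb limit the summed widths were 4585 and 7465 bp, and *DUSP8* was still called wider. UV intervals with no counterpart lay 10796 bp downstream in intron 3 and 15744 bp downstream in coding exon 7, with a −log10 q of 10.5 and 13.0. The canonical start stayed free of H3.3 intervals in both libraries, over 1004 bp without UV and 892 bp after UV.

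*DUSP10* encodes MKP-5 and spans 40666 bp at chr1:221701424-221742089. Its interval upstream of the start had the highest −log10 q of the DUSP genes in both libraries, 55.2 without UV and 76.9 after UV, with a fold enrichment of 10.79 and 11.19. These −log10 q values were reached by 493 genes without UV and 613 genes after UV. The interval was 856 bp wide without UV and 935 bp after UV, with summits 729 and 1079 bp upstream without UV and 716 and 1074 bp after UV. Width and position thus differed little. Within the gene body the lists shared 1 interval, with its summit 10337 bp downstream without UV and 10319 bp after UV, and differed in the others. UV intervals without a counterpart lay 22239 bp downstream in intron 2, 35736 bp downstream in coding exon 3 and 36811 bp downstream in intron 3, and a no UV interval lay 21425 bp downstream in intron 2.

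*DUSP16* encodes MKP-7 and is the longest gene of the set, with 89582 bp at chr12:12473282-12562863. It had 4 intervals without UV and 2 after UV, and both UV intervals had a counterpart. An interval across the start was 514 bp wide without UV and 620 bp after UV, and an interval in intron 1 was 577 bp wide without UV and 819 bp after UV. In the no UV list these had fold enrichments of 5.08 and 2.69, and in the UV list 11.44 and 11.31. The percentile of the intron 1 summit was 47.7 among no UV summits and 96.4 among UV summits. The remaining no UV intervals lay 11386 and 30072 bp downstream in intron 1 and were weak, with a −log10 q of 1.6 and 3.7. The summed TSS width was 1091 bp without UV and 1439 bp after UV, a ratio of 1.32, and with peaks under a −log10 q of 5 left out it was 514 and 1439 bp, past the limit for wider.

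*DUSP14* encodes MKP-6, a small atypical phosphatase without the MAP kinase docking domain of the others, and spans 23611 bp at chr17:37489891-37513501 on the plus strand. It held 16 intervals without UV, the most of the set, and 11 after UV, as many as *DUSP1*, and they covered 7855 and 6381 bp. Some belong nearer to other genes, as 2 no UV summits lay closest to the start of *TADA2A*, and 2 no UV summits and 1 UV summit closest to that of *SYNRG*. The interval over the *DUSP14* start was nearly the same in both libraries, 1443 bp without UV and 1427 bp after UV. It reached 890 and 892 bp upstream and 552 and 534 bp downstream. Which of its summits was the stronger differed. The summit in intron 1, 320 bp downstream without UV and 295 bp downstream after UV, had a −log10 q of 48.3 and 24.7, while the upstream summit, at 316 and 393 bp, had 13.8 and 32.7.

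Inside intron 1 of *DUSP14*, a strong summit lay 4248 bp downstream without UV and 4264 bp downstream after UV, with a fold enrichment of 14.40 and 8.46. It ranked at percentile 98.6 of the no UV summits and 89.5 of the UV summits. A no UV interval of 357 bp, 1286 bp downstream and near another annotated start, had no counterpart, so the summed TSS width was 1800 and 1427 bp. With a TSS limit of 2 kb the widths were 3468 and 1922 bp, and *DUSP14* passed the limit for narrower.

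**Figure D2:**
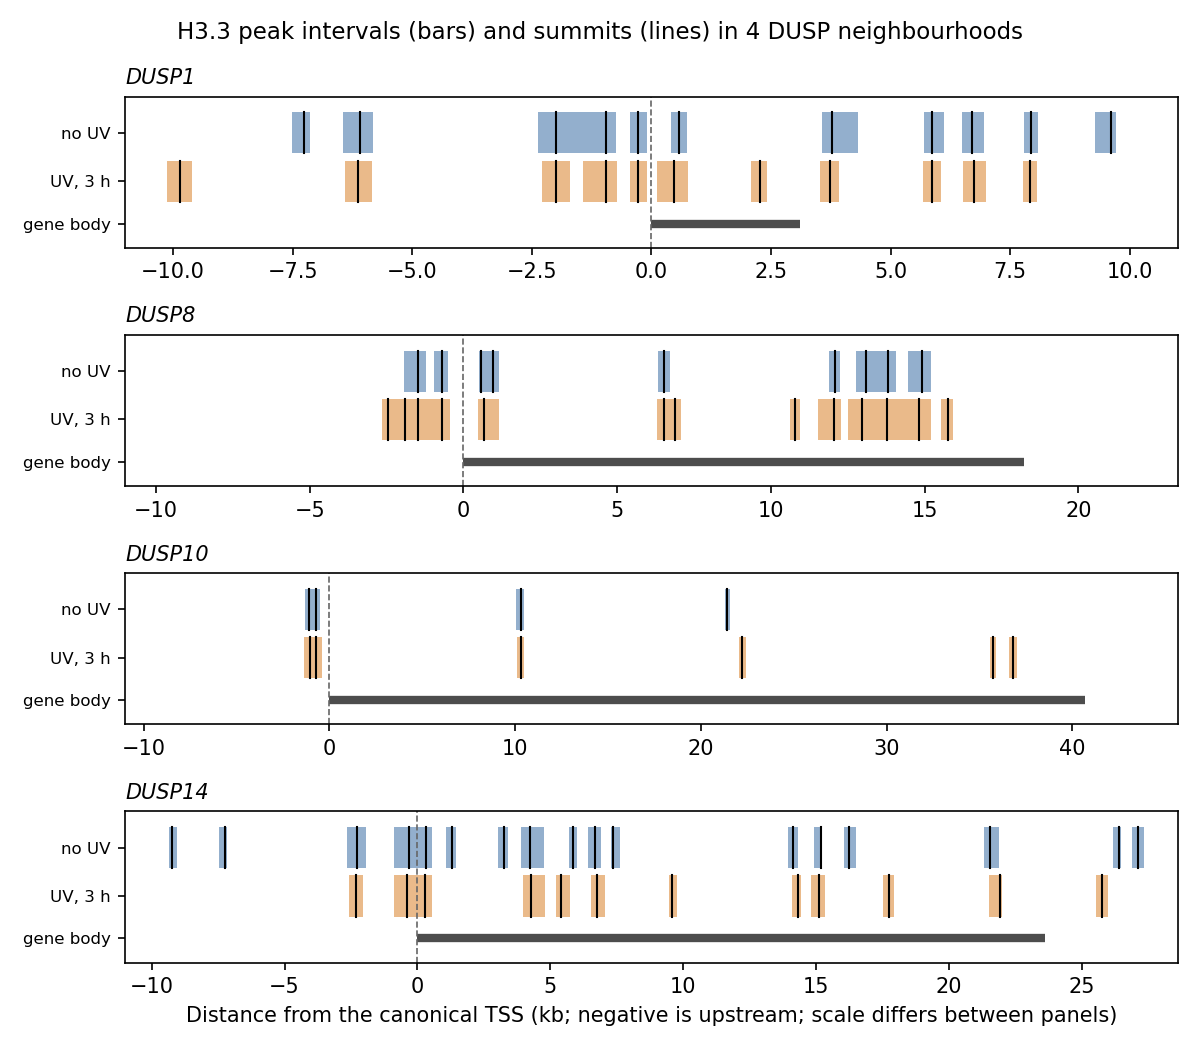
Intervals (bars) and summits (lines) over the neighbourhoods of *DUSP1*, *DUSP8*, *DUSP10* and *DUSP14*, with the gene body as a dark line and distance from the canonical TSS in kb on a scale that differs between panels. *DUSP1* and *DUSP14* carry intervals throughout, *DUSP8* carries wider intervals after UV at both ends, and *DUSP10* carries its strongest interval upstream of the start and few within the gene.

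Across the set, intervals were fewer after UV but covered slightly more sequence. The 56 no UV intervals covered 31050 bp and the 49 UV intervals 33812 bp, a ratio of 0.875 for number and 1.09 for covered length. Over the neighbourhoods of all protein-coding genes these ratios were 0.887 and 0.923. The larger covered length rests on *DUSP8*, which went from 4585 to 7845 bp, a rise larger than that of the whole set. The other members together covered slightly less after UV. The direction of the ratio for number depended on weak peaks, and it was 1.05 once peaks with a −log10 q under 3 were left out. By gene, *DUSP1*, *DUSP4* and *DUSP10* had more intervals after UV (25.3% of protein-coding genes did), *DUSP5*, *DUSP14* and *DUSP16* fewer (32.9%), and *DUSP6*, *DUSP7* and *DUSP8* as many (16.4%). The covered length was larger after UV at 5 genes, *DUSP4*, *DUSP6*, *DUSP7*, *DUSP8* and *DUSP10* (37.2% of protein-coding genes), and smaller at 4, *DUSP1*, *DUSP5*, *DUSP14* and *DUSP16* (37.3%).

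**Figure D3:**
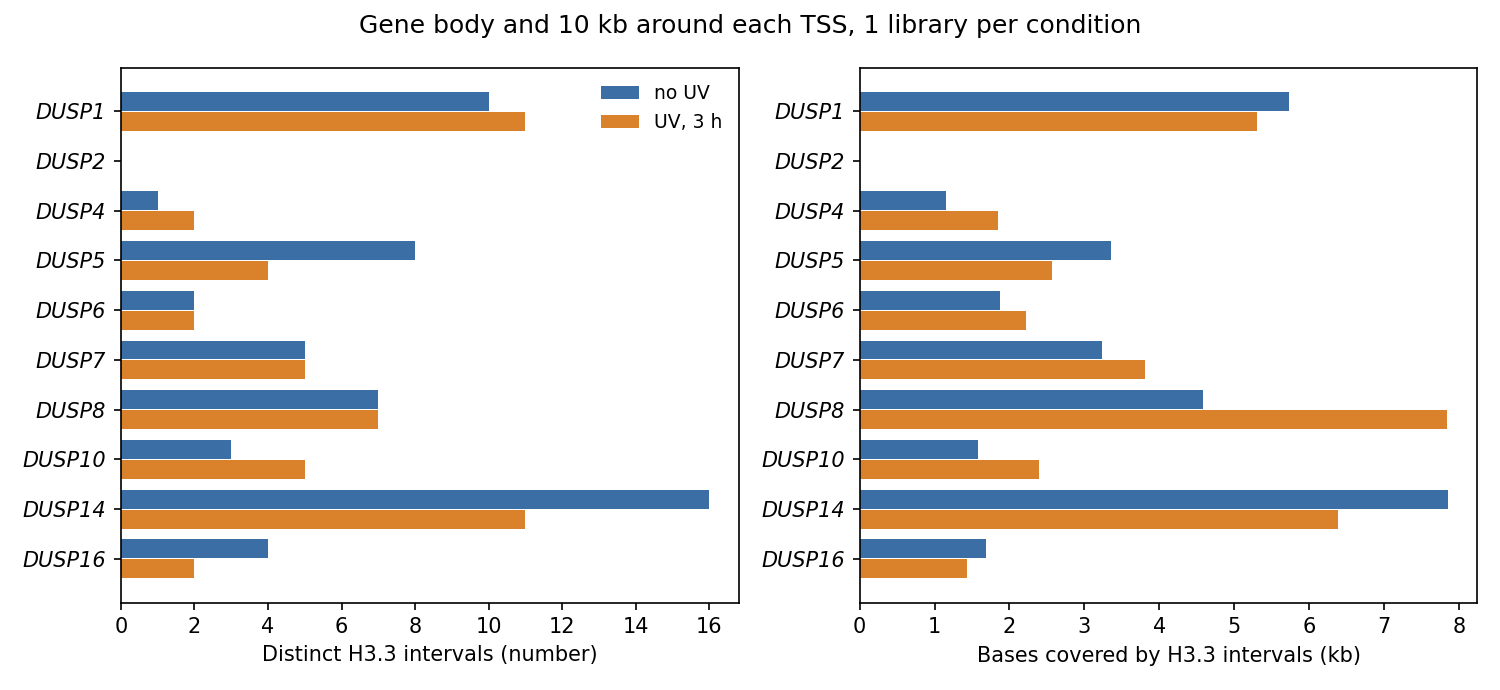
Number of distinct H3.3 intervals (left) and kb covered by them (right) for each of the 10 DUSP genes, no UV and UV, with 1 library per bar. *DUSP14* had the most intervals in the no UV library and *DUSP2* none, and *DUSP8* had 7 in each library with more sequence covered after UV.

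Summed widths at the start sites were larger after UV at most of the DUSP genes, as at most protein-coding genes. Of the 9 genes with a TSS interval in both libraries, 7 had a larger summed width after UV, against 68.8% of the 8974 protein-coding genes. The median ratio was 1.32 (interquartile range 1.09 to 1.61) for the DUSP genes and 1.18 (0.929 to 1.62) for all. Past the limit of 1.5, *DUSP4*, *DUSP7* and *DUSP8* were wider and none was narrower, against 29.4% and 10.2% of protein-coding genes. The other 6 stayed within the limits, against 60.4%, so the shares were near those of the background. These calls depend on the 1 kb TSS limit. With a limit of 2 kb *DUSP14* was narrower (3468 and 1922 bp), and *DUSP5* was no longer larger after UV (1887 and 1876 bp). The TSS intervals of the set covered 13687 bp without UV and 19230 bp after UV. Those of all protein-coding genes also covered more after UV, with 11008191 bp without UV and 13259286 bp after UV. Most of the rise in the set came from *DUSP8*, which went from 3122 to 7143 bp, so its size rests largely on that gene. The median width of the TSS intervals of the set was 618.5 and 786 bp, against 473 and 525 bp over all protein-coding genes.

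**Figure D4:**
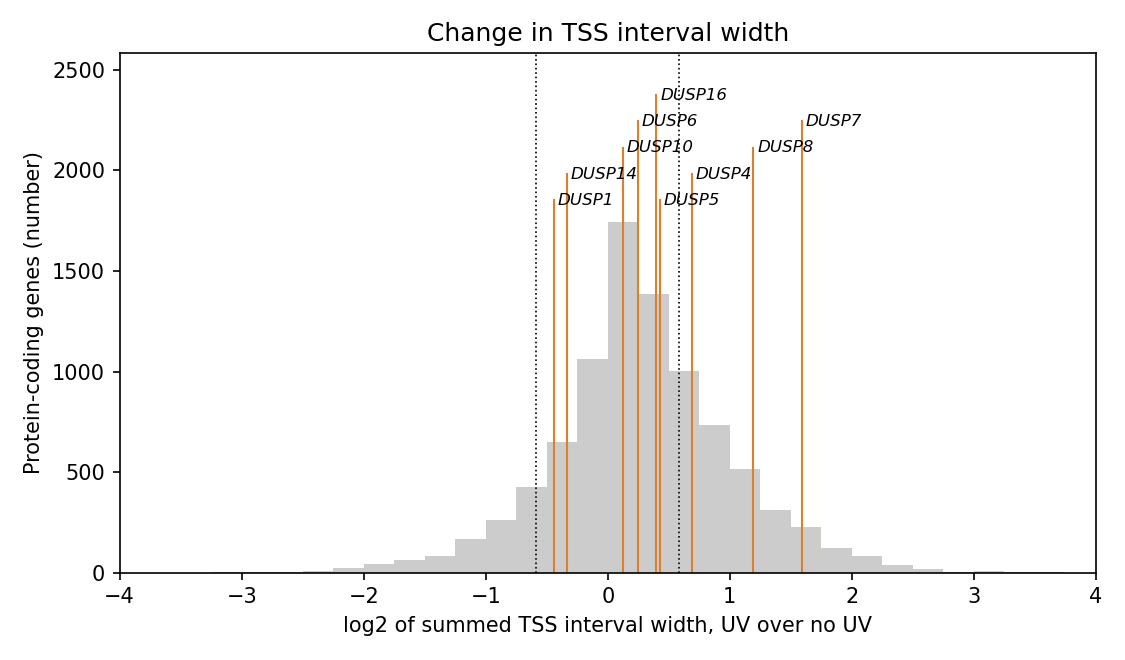
Histogram of the log2 ratio of summed TSS interval width, UV over no UV, for the 8974 protein-coding genes with a TSS interval in both libraries (grey), with the 9 DUSP genes as vertical lines whose height only separates the names and the 1.5-fold limits dotted. *DUSP4*, *DUSP8* and *DUSP7* lie beyond the upper limit, and *DUSP1* and *DUSP14* are the members below 0.

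A canonical start covered by an interval without UV was covered after UV, and an uncovered start stayed uncovered. The covered starts were those of *DUSP4*, *DUSP5*, *DUSP14* and *DUSP16*, that is 4 of 9 genes. Among protein-coding genes with a TSS interval, the canonical start was covered in 36.6% without UV and in 52.2% after UV. These shares are of the genes of each library, and the share of genes that kept their state was not computed. At the 3 genes with an interval within 1 kb on each side of an uncovered start, *DUSP1*, *DUSP6* and *DUSP8*, the free stretch was shorter after UV, by the values given above, and the share of all genes with a shorter stretch was not computed. At *DUSP10*, whose next downstream interval lay over 10 kb away, the stretch was 10518 bp without UV and 10532 bp after UV. At *DUSP7*, with no upstream interval within 10 kb, it was 16799 and 14561 bp.

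Summits lay close together where the lists shared an interval. For 46 no UV summits inside an interval that overlapped a UV interval, the nearest UV summit there lay at a median of 44 bp (interquartile range 13.5 to 102 bp), and 26 of them lay within 50 bp. Over all protein-coding genes the median was 51 bp and 49.9% lay within 50 bp, against 56.5% for the DUSP genes. The median was 33 bp for the 25 summits in TSS intervals and 46 bp for the 21 others. It was 96 bp when the nearest UV summit was taken at any distance, since summits without a shared interval then enter.

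Without UV a larger share of the intervals at start sites than of the others recurred. Of the no UV TSS intervals of the set, 17 of 18 overlapped a UV interval by at least 1 bp, a share of 94.4% (exact Clopper-Pearson 95% interval 72.7 to 99.9%, counting error only). For the other no UV intervals it was 19 of 38 (33.4 to 66.6%). From the UV side the shares were 17 of 19, or 89.5% (66.9 to 98.7%), and 17 of 30, or 56.7% (37.4 to 74.5%), and these 95% intervals overlap. The 95% intervals treat the peak intervals as independent, although 5 of the TSS intervals in each list lie at *DUSP8*. They therefore test no difference between the shares. Over all protein-coding genes, 76.5% of no UV and 67.7% of UV TSS intervals had a counterpart, and 51.7% and 63.5% of the others.

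Intervals without a counterpart had a lower median −log10 q and a smaller median width than those with one. The 20 in the no UV list had a median −log10 q of 3.12 and a median width of 309.5 bp, against 9.49 and 571 bp for the 36 with one. In the UV list the 15 without a counterpart had a median −log10 q of 5.23 and a width of 367 bp, against 15.15 and 634.5 bp for the 34 with one. Some were nonetheless strong. A no UV interval past the end of *DUSP14* had a −log10 q of 15.4 and ranked at percentile 89.0 of its list. UV intervals past the end of *DUSP14*, at *DUSP4* and at *DUSP8* had 15.9, 13.2 and 13.0 and ranked at percentiles 83.5, 79.2 and 78.9. Both intervals past *DUSP14* had their summits nearest to the start of *SYNRG*, 310 bp away without UV and 1692 bp away after UV.

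Counting intervals that overlap across the lists as 1 place gave 33 shared places. Of these, 29 (87.9%) were 1 interval in each list, 3 (9.09%) were separate intervals without UV that were joined after UV, and 1 (3.03%) was divided. Over all protein-coding genes the shares were 89.8%, 4.98% and 4.16%. The joined places were the pair at *DUSP8* and the one past *DUSP7*, and the divided place was that of *DUSP1*.

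Most of the summits lay outside coding sequence. Without UV, 24 of 66 lay in introns, 21 upstream, 12 downstream of the gene, 8 in coding exons and 1 in a 5′ untranslated exon. After UV, 24 of 64 lay in introns, 19 upstream, 10 in coding exons, 8 downstream, 2 in 5′ untranslated exons and 1 in a 3′ untranslated exon. In both lists the nearest protein-coding start was mostly that of the member itself, for 52 of 56 intervals without UV and 48 of 49 after UV. Among all annotated starts, several summits lay nearer to another gene. A *DUSP1* summit lay 10 bp from a start of ENSG00000213386 without UV and 11 bp after UV. An upstream *DUSP8* summit lay 17 bp from a start of *KRTAP5-AS1* without UV and 14 bp after UV.

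Ranked within its own library by the −log10 q of the strongest TSS peak, *DUSP10* stood highest in both, at percentile 94.9 of genes with a TSS interval without UV and 94.3 after UV. *DUSP14* and *DUSP1* followed without UV, at 92.4 and 89.7, and stood at 72.2 and 82.1 after UV. The ranked *DUSP1* summits were those 958 and 951 bp upstream, which lay nearest to the start of ENSG00000253736. *DUSP16* stood at 68.9 without UV and 87.7 after UV, next to *DUSP10*. *DUSP7* stood lowest in both libraries, at 9.1 and 27.5. The rank was higher after UV for *DUSP4*, *DUSP6*, *DUSP7*, *DUSP8* and *DUSP16* and lower for *DUSP1*, *DUSP5*, *DUSP10* and *DUSP14*. At *DUSP6*, *DUSP8* and *DUSP14* the strongest summit was not at the same place in both libraries. The ranked UV summit of *DUSP8*, with a −log10 q of 39.2, lay in coding exon 7, 1978 bp from the nearest start, in the joined 2713 bp interval. The no UV summit there had 30.1 but was not ranked, because its 751 bp interval lay 1623 bp from a TSS. With 1 library per condition, no spread is known against which neighbours in this order could be told apart.

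**Figure D5:**
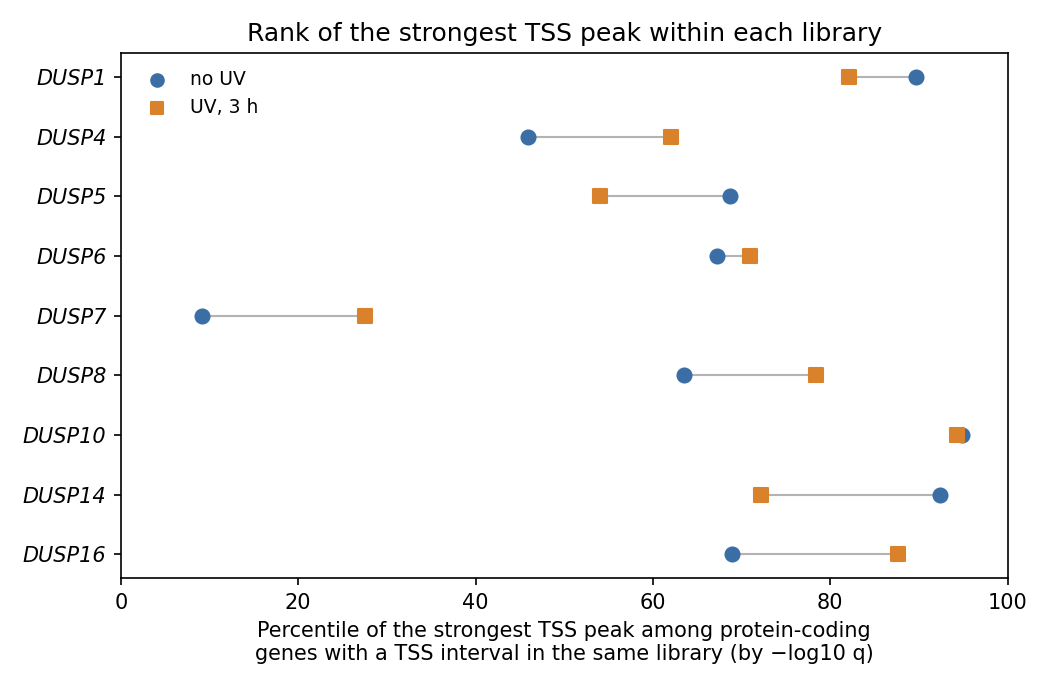
Percentile of each gene's strongest TSS peak, by −log10 q, among the protein-coding genes with a TSS interval in the same library (9616 no UV, 10818 UV), with 1 point per library. *DUSP10* lies at 94.9 and 94.3, *DUSP16* at 68.9 and 87.7, *DUSP14* at 92.4 and 72.2 without and after UV, and *DUSP7* lies lowest in both.

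The intervals at the start sites lay in sequence rich in G and C. Their median GC content was 70.8% (51.5 to 77.5%) without UV and 69.9% after UV, against 49.8% and 51.3% for the other intervals of the set. Over all intervals the medians were 49.2% and 50.8%. Intervals with a counterpart were also richer in G and C than those without, at 65.3% and 48.9% without UV and 62.4% and 54.5% after UV.

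The promoters were searched for short motifs on both strands over the 250 bases before the start, using RefSeq sequences for 8 of the 10 genes (*DUSP4* and *DUSP5* were absent) and a background of 35116 promoters. The cAMP response element TGACGTCA was found in *DUSP1*, with its first base 125 bp upstream, and in *DUSP8*, 118 and 74 bp upstream, as capitals in the sequences above. It occurs in 1.65% of promoters. At *DUSP1* it falls inside the interval that began 97 bp upstream without UV and 89 bp upstream after UV. At *DUSP8* both copies fall in the stretch free of intervals, whose upstream edge stood at 506 and 429 bp.

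The GC box GGGCGG was present in 7 of the 8 genes, all but *DUSP6*, and in 42.6% of promoters. The E-box CACGTG occurred in *DUSP1* and *DUSP2* (6.34% of promoters) and the TATA box TATAAA in *DUSP1*, 30 bp upstream (10.7%). Neither the AP-1 motif TGANTCA (6.57%) nor the CArG box (1.16%) was found in these windows. The matches to TGACGTCA overlapped none of the other motifs. A match describes the letters alone, and the binding of a factor was not measured.

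Other genes of the same pathway were described by the same measures, as counts. For comparison, 44.8% of all protein-coding genes had a TSS interval in both libraries. Of those genes 29.4% were wider, and their median width ratio was 1.18. The lists are short, and no difference from these shares was tested. The remaining MAP kinase phosphatase *DUSP9* had no interval without UV and gained a TSS interval of 351 bp after UV, with a −log10 q of 6.1. Of the atypical dual-specificity phosphatases, 7 of 14 had a TSS interval in both libraries and 7 in neither, with 2 wider and a median width ratio of 1.24. Of the Sprouty and Spred genes, which encode inhibitors of the pathway above ERK, 6 of 7 had one in both and 4 were wider, with a median ratio of 1.87.

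Among the MAP kinases, the family that DUSP proteins act on, *MAPK6* (ERK3), *MAPK9* (JNK2) and *MAPK13* (p38 delta) gained a TSS interval after UV, a class that held 9.20% of protein-coding genes. The gained intervals were 358 bp, 948 bp and 826 bp wide in that order, with a −log10 q of 5.0, 3.8 and 11.7. Of the 7 MAP kinase genes with an interval in both libraries, 4 were wider and the median ratio was 1.53. Among the MAP kinase kinases, 5 of 7 had one in both, *MAP2K4*, an activator of JNK, gained 345 bp with a −log10 q of 3.7, and 1 had none. Of the 5, 2 were wider and 2 narrower, with a median ratio of 1.04. No gene of these lists lost a TSS interval.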

How the data were processed

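H3.3 ChIP-seq peak lists of 2 libraries, no UV and UV, were used. Per the submitters' processing notes, bcl2fastq 2.17, Trimmomatic 3.36, BWA 0.7.12 and MACS 1.4.2 were used with hg38. The peak lists are in the narrowPeak format of later MACS versions, so the version that wrote them is uncertain. The control and the threshold for the H3.3 peaks are not given in the sources used here. The deposited score, fold enrichment (a linear ratio), −log10 p-value and −log10 q-value of each peak were computed by the authors within a library, and served here only for ranks and thresholds. The lowest −log10 q corresponds to a q of 0.05. Lists with a row per summit were reduced to distinct intervals.

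Genes and TSSs came from GENCODE release 44, and chromosome names and lengths were checked against hg38. A TSS interval lay within 1 kb of any TSS, counterparts overlapped by at least 1 bp, and a ratio of summed TSS width above 1.5 or below 0.667 was called wider or narrower. The canonical TSS is that of the transcript GENCODE marks as canonical. Python 3.11.15, numpy 2.4.6, scipy 1.17.1 and matplotlib 3.10.9 were used, and the procedures were tested on simulated lists.

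All 10 members are named, other genes only as listed with gain or loss, as nearest neighbours or as cell type markers. The members and lists were chosen with earlier results of these data known. The alternatives were other thresholds, windows and overlaps, equal list lengths and other ways of counting. The input libraries were not analysed here. Some genes of the pathway and marker lists are not reported here.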

Additional observations from a re-analysis of the deposited data

How the results depend on the processing

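Of 77 alternative values, 70 were classed as the same, 4 as moved and 3 as reversed. A value classed as the same kept its direction but could differ in size. The no UV intervals of the set fell from 56 to 42 once peaks with a −log10 q under 3 were left out. The genes called wider fell from 3 to 2 with the canonical TSS alone. Both of these were classed as the same. The ratio of UV to no UV intervals at the DUSP genes, 0.875, became 1.05 once peaks with a −log10 q under 3 were left out, 1.26 once those under 5 were, and 1.11 with equal numbers of peaks, which removes weak peaks from the longer no UV list. Without the peaks under 5, the no UV intervals fell to 31, 80.6% of them had a counterpart, and 1 gene, *DUSP7*, gained a TSS interval. The median summit shift was 96 bp with the nearest summit at any distance. The covered length ratio lay above 1 under every alternative run, up to 1.35 without the peaks under 5, but no alternative left out *DUSP8*. No paired analysis was possible because each condition is 1 library, and for the same reason no replicate could be left out. The lists carry no read numbers, so what depth adds to peaks found in 1 list was not tested.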
